A study of Mus musculus with 32 samples.

Results

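The 34 genes described here encode enzymes of the pentose phosphate pathway, of purine and pyrimidine nucleotide synthesis and salvage, and of the kinases and hydrolases that act on the nucleotides made. They were taken by symbol from a list of 34 names, all 34 were found among the 24885 rows of the count table, and all 34 passed the filter on low counts that left 11244 genes for testing. The pentose phosphate pathway branches from glycolysis: its oxidative arm yields NADPH, and its non-oxidative arm interconverts sugar phosphates and supplies ribose 5-phosphate. Ribose 5-phosphate is activated to phosphoribosyl pyrophosphate (PRPP), on which the purine ring is built stepwise to inosine monophosphate (IMP) and to which the pyrimidine ring is attached. Dividing cells make nucleotides for DNA and RNA, and activated macrophages are known to draw on the oxidative arm for NADPH, which serves both the oxidative burst and the reduction of glutathione.

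RNA came from mouse bone marrow-derived macrophages of the strain C57BL/6, in 8 groups of 4 libraries. The groups were, for Trem2 knockout cells (T2KO in the labels, from the Trem2-/- mice of Turnbull and colleagues) and then for wild-type cells (WT), low M-CSF with LPS, low M-CSF without LPS, normal M-CSF with LPS, and normal M-CSF without LPS. M-CSF is the growth factor that supports macrophage survival and division, and LPS, a bacterial cell wall component that activates macrophages, was given at 10 ng/ml for 4 hours. The protocols name LCCM at 0.5% or 10% in complete RPMI overnight, and reading low as 0.5% and normal as 10% is an inference. Poly-A RNA was primed with barcoded oligo-dT, pooled by Actb level and amplified for 12 cycles, so the reads come from transcript ends nearest the poly-A tail. Separate mice or cultures are not stated for the 4 libraries of each group. Every p below therefore measures only the spread between libraries, which may be technical. In bulk RNA, fewer cells of one type and less RNA per cell cannot be told apart.

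Library totals ranged from 3068863 to 15585423 counts. Trem2 stood at 1.81% to 25% of the WT mean in the 4 T2KO groups, and was highest among them in low medium without LPS, at 99.0 to 132 CPM in T2KO libraries against 371 to 517 CPM in WT libraries. The labels do not say which part of the gene was deleted, so these reads do not test the deletion itself. Markers of macrophages (8 genes) summed to 4393 to 11174 CPM in every library, whereas those of dendritic cells (5 genes), stromal cells (6) and lymphocytes (6) reached at most 17.3, 6.79 and 1.28 CPM. Markers of neutrophils and their precursors (9 genes) summed to 70.9 to 430 CPM. In 6 of 8 groups libraries 1 and 3, and libraries 2 and 4, were each closer to each other than any other pair was. WT low and WT normal cells without LPS were the exceptions. Chi-square per degree of freedom had a median of 6.37 in these 16 pairs and 27.6 in the other 32. Every pair differed by more than counting error (lowest value 4.03), but the pairs may share a source, which would leave 2 independent samples per group. Members whose call was lost when counts were summed within such pairs are therefore named beside each set of comparisons. WT normal library 1 without LPS stood apart for several of the genes, and results that rest on it are given without it too.

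The 5 genes below are those with an E-box (CACGTG, the site read by MYC, USF and related factors) in the RefSeq promoter window of 250 bases before to 50 bases after the start. MYC is known to act on nucleotide synthesis genes, which is why this motif is shown. Sequences are from RefSeq, build GRCm38.p6, with the motif in capitals, cut at the first base of any annotated gene. The Atic stretch is chr1:71557099-71557155 on the plus strand, that of Impdh2 chr9:108560276-108560381 (plus), that of Nme1 chr11:93968273-93968340 (minus) and that of Dtymk chr1:93802069-93802132 (minus).
Atic: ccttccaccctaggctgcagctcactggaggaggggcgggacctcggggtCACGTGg
Impdh2: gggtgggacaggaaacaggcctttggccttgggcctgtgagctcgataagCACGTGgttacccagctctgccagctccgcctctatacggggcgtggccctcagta
Nme1: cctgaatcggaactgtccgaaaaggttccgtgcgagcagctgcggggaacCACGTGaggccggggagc
Dtymk: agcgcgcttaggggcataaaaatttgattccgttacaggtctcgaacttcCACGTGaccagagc
The motif began 7 bases before the start of Atic, 110 before that of Impdh2, 18 before the first start of Nme1 and 148 before the start used for Dtymk. That Dtymk start lies inside the annotated span of the gene, and the printed stretch ends where this span begins. The fifth gene, Paics, has its E-box 203 bases before its start and inside the neighbouring Ppat, which is transcribed the other way, with the starts of these purine enzymes 276 bases apart on chromosome 5 and their annotated spans overlapping there. The E-box was present in 5 of the 32 members with a window (15.6%) and in 8.09% of all 27025 genes with one; Pfas and Dhodh were not matched. CCAAT was present in 13 of 32 members and 41.1% of all genes, GCGGGAA (an E2F site) in 3 of 32 and 5.29%, and the antioxidant response element core (TGAC, any 3 bases, then GC) in 7 of 32 and 14%. Both strands were searched, and a match in letters is a description, not evidence of a bound factor. All 5 E-box genes were lower in low medium in each comparison made below, as were 12 of the other members. The matching shares over all genes, with and without an E-box, were not counted. A link between the motif and the medium was not tested.

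Low M-CSF lowered most of the set in both genotypes, with and without LPS. A gene is called below when its adjusted p from the edgeR quasi-likelihood test was under 0.05 over all 11244 genes. Each log2 fold change stands before its standard error. In T2KO cells with LPS 26 members fell and 1 rose, where 59.2% of all genes were called (32.8% lower, 26.5% higher). In T2KO cells without LPS 22 fell and none rose (48.2% of all genes called, 21.7% lower, 26.6% higher). In WT cells with LPS 23 fell and 1 rose (45.6% called, 24.2% lower, 21.4% higher). In WT cells without LPS 24 fell and none rose (44.3% called, 21.9% lower, 22.4% higher). The members' median log2 fold change was -1.36, -0.83, -1.0 and -0.93 in these 4 comparisons, against -0.14, 0.10, -0.10 and 0.01 over all genes tested. With libraries summed in pairs, 26, 17, 17 and 19 members were called. The calls lost in pair sums were those of Tkt and Taldo1 in T2KO cells with LPS. Without LPS, T2KO cells lost those of Rpe, Gart, Paics, Umps and Cmpk1. In WT cells they were those of G6pdx, Pgls, Paics, Atic, Gmps, Adss, Hprt and Umps with LPS. Without LPS, WT cells lost those of Taldo1, Prps2, Atic, Hprt and Umps. The members called lower in every one of the 4 comparisons were 17 in number, and only Rpia, Pgd and Ctps2 were called in none. How many of all genes were lower in all 4 was not counted, so the 17 have no background share beside them.

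**Figure D1:**
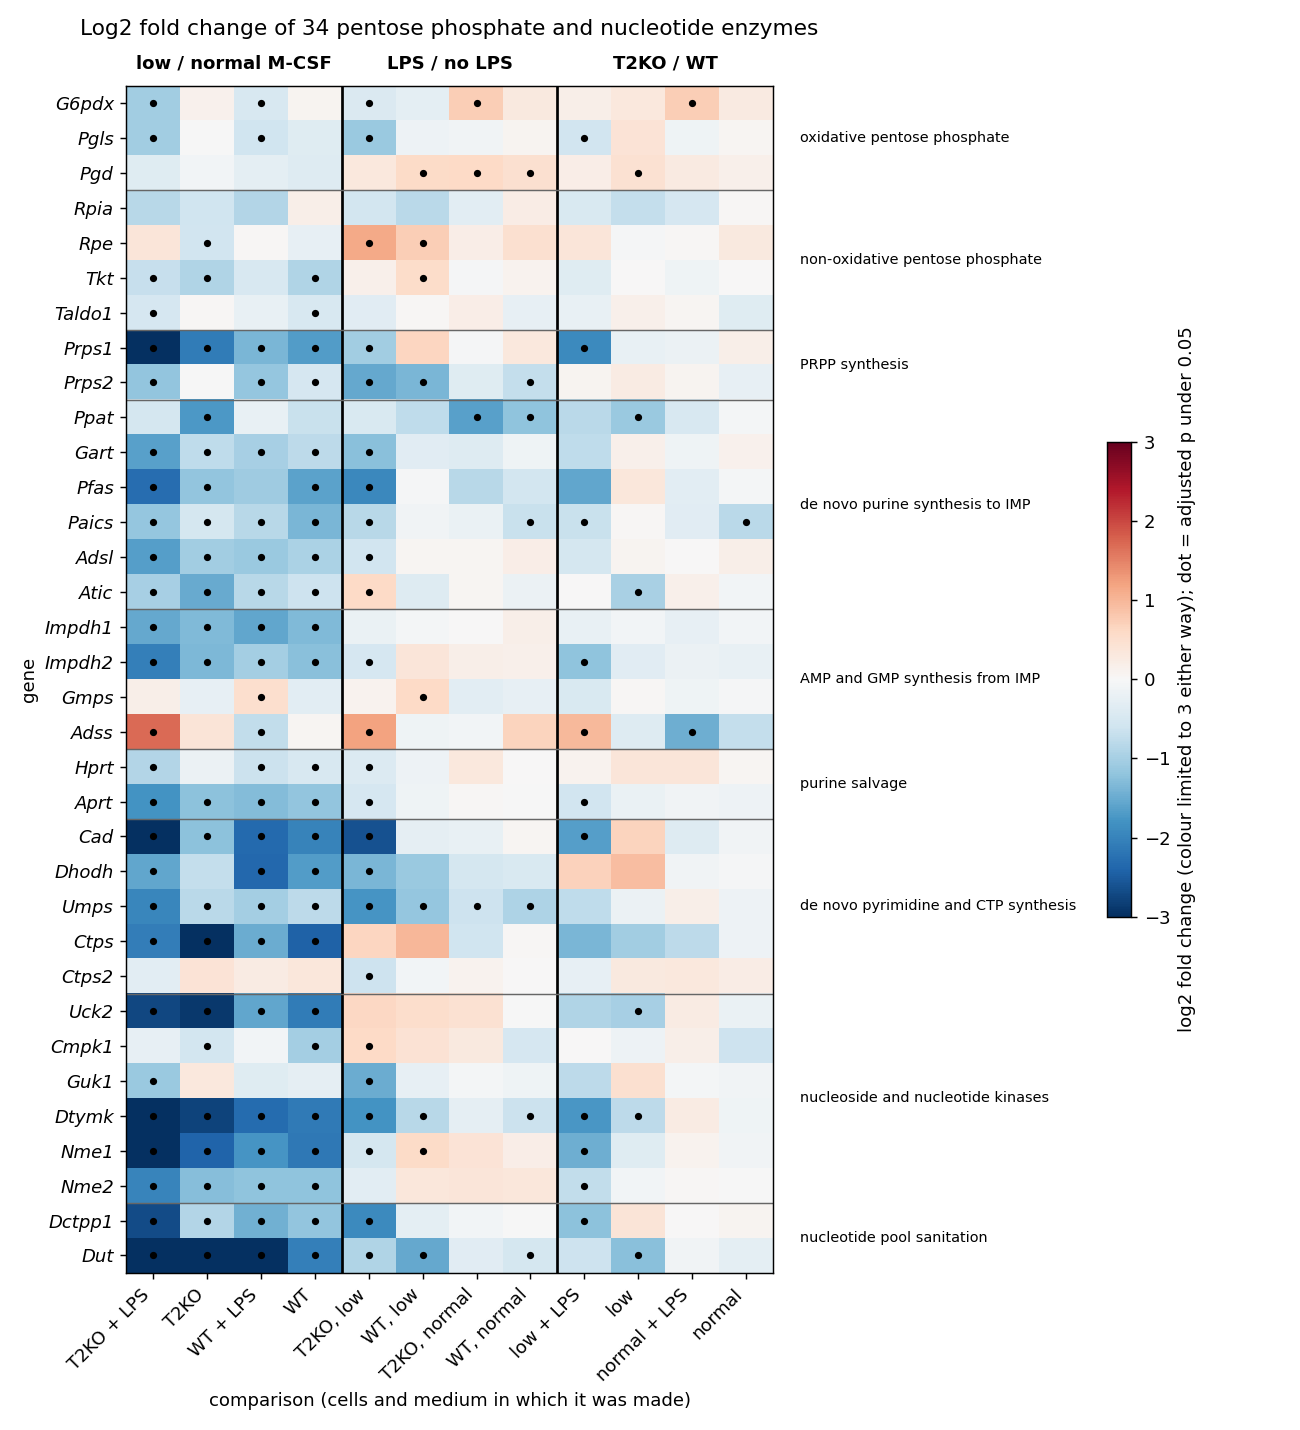
Log2 fold changes of the 34 genes, in rows ordered by role, in 12 comparisons: low over normal M-CSF (left block), LPS over no LPS (middle block) and T2KO over WT (right block). Blue is lower and red is higher in the group named first, the colour scale stops at 3 in either direction, and a dot marks an adjusted p under 0.05. The left block is mostly blue with 22 to 26 members lower, while the right block holds 1 to 11 dots per column.

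LPS moved fewer members in 3 of its 4 comparisons. In T2KO cells in low medium 4 rose and 20 fell (67.5% of all genes called, 26.5% higher, 41% lower). In WT cells in low medium 5 rose and 4 fell (60.7% called, 27% higher, 33.6% lower). In normal medium 2 rose and 2 fell in T2KO cells (42.7% called, 20.9% higher, 21.8% lower). In WT cells in normal medium 1 rose and 6 fell (36.1% called, 18.3% higher, 17.9% lower). The medians were -0.52, -0.12, -0.06 and -0.00, against -0.36, -0.18, -0.05 and -0.04 over all genes. The count in T2KO cells in low medium turned on scaling: with RLE size factors 6 members rose and 14 fell, and the median over all genes was -0.25. With libraries summed in pairs, 15, 6, 2 and 1 members were called. The calls lost in pair sums were those of G6pdx, Adsl, Atic, Impdh2, Hprt, Aprt, Ctps2, Cmpk1 and Nme1 in T2KO low cells. WT low cells lost those of Pgd, Tkt, Gmps and Nme1. In normal medium they were those of Pgd and Umps in T2KO cells. WT normal cells lost those of Pgd, Prps2, Paics, Umps, Dtymk and Dut.

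Between genotypes, more members were called in low than in normal medium, and the same held for all genes tested. In low medium with LPS 1 member was higher and 10 were lower in T2KO cells than in WT cells (19.1% of all genes called, 8.2% higher, 10.9% lower). In low medium without LPS 1 was higher and 5 lower (16.7% called, 7.74% higher, 8.97% lower). In normal medium 1 was higher and 1 lower with LPS (4.04% called, 1.98% higher, 2.05% lower). Without LPS in normal medium 1 was lower (1.86% called, 0.747% higher, 1.11% lower). The medians were -0.57, -0.00, -0.07 and -0.07, against -0.05, 0.07, 0.00 and -0.01 over all genes. Summed in pairs, the counts were 4, 1, 0 and 0, and with RLE size factors the first count was 7. The pair sums kept Prps1, Impdh2, Dtymk and Nme1 in low medium with LPS and Dut in low medium without LPS. The comparisons of one factor share libraries with those of the others, so the values are given side by side and their likeness is not a separate result.

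Markers of proliferating cells (Mki67, Top2a, Ccnb1, Ccna2, Cdk1, Plk1, Bub1 and Birc5) also differed between media and, in low medium, between genotypes. They summed to 377 to 588 CPM in T2KO low, 1228 to 1660 in T2KO normal, 386 to 1241 in WT low and 1617 to 2045 in WT normal libraries with LPS. Without LPS the sums were 99.2 to 316, 1689 to 2666, 760 to 1634 and 2211 to 2904 CPM in the same order. In low medium 7 of 8 were called lower with LPS and 8 of 8 without it, in both genotypes; in T2KO against WT cells in low medium 7 of 8 were lower with LPS and 8 of 8 without, and none was called in normal medium. With LPS in T2KO low cells 5 of 8 fell and 1, Mki67, rose, and the sum was higher in every LPS library than in any library without LPS. Neutrophil markers moved the other way, with sums of 279 to 430 CPM in T2KO low libraries with LPS against 115 to 161 in T2KO normal libraries, and 7 of 9 higher in T2KO low than normal cells without LPS. The part of either in the members' changes was not tested.

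In the oxidative arm of the pentose phosphate pathway, LPS raised both NADPH-yielding enzymes in T2KO cells in normal medium, whereas in T2KO cells in low medium G6pdx fell and Pgd was not called. G6pdx encodes glucose 6-phosphate dehydrogenase, which commits glucose to the pathway and makes the first NADPH. With LPS, G6pdx stood at 75, 68.3, 70.9 and 103 CPM in T2KO low, 137, 190.1, 145 and 184 in T2KO normal, 65.6, 71.1, 57.8 and 86.8 in WT low and 113, 93.3, 98.3 and 88.6 in WT normal libraries. Without LPS, G6pdx had 102, 107, 122 and 97.4 CPM in T2KO low, 87.9, 99.4, 96.1 and 107 in T2KO normal, 98.5, 62.1, 103 and 79.2 in WT low and 97.9, 71, 85.2 and 68.1 in WT normal libraries. The T2KO normal libraries with LPS were above all 28 others. Ikbkg overlaps G6pdx, and whether counting used the strand is not given in the sources used here. In T2KO normal cells LPS raised G6pdx by 0.75 ± 0.17 log2 units (adjusted p = 4.80e-04), and with LPS it was higher in T2KO normal than WT normal cells by 0.73 ± 0.17 (adjusted p = 0.00776). With libraries summed in pairs that genotype difference was 0.71 and was not called (adjusted p = 0.39). In low medium G6pdx was lower in both genotypes with LPS, with a log2 fold change of -1.05 ± 0.17 (adjusted p = 3.50e-06) in T2KO cells and -0.49 ± 0.17 (adjusted p = 0.0217) in WT cells, and the WT call was lost in 6 of 14 other settings, among them RLE size factors, DESeq2, the pair sums and leaving out WT low library 1 or 3 or WT normal library 1 (-0.40 to -0.46). LPS lowered G6pdx in T2KO low cells, with a log2 fold change of -0.44 ± 0.17 (adjusted p = 0.0241) and overlapping libraries. This call was lost in 6 of 14 other settings, among them RLE size factors, DESeq2, the pair sums and leaving out T2KO low library 2 or 3 with LPS (-0.39 and -0.41). The medium effect differed between LPS states by -1.19 ± 0.24 (adjusted p = 2.79e-04) in T2KO cells, and by -0.58 ± 0.24 (adjusted p = 0.0832) in WT cells, which was not called.

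Pgd encodes 6-phosphogluconate dehydrogenase, the other NADPH-yielding step. With LPS it stood at 258, 307, 237 and 294 CPM in T2KO low, 420.3, 316, 359.9 and 304 in T2KO normal, 174, 282, 192 and 301 in WT low and 326, 280.2, 295 and 259 in WT normal libraries. Without LPS, Pgd had 275, 187, 235 and 189 CPM in T2KO low, 213, 248, 209 and 261 in T2KO normal, 168, 135, 164 and 174 in WT low and 219, 197, 232 and 189 in WT normal libraries. LPS libraries lay above those without LPS in both genotypes in normal medium and in WT cells in low medium, and overlapped in T2KO cells in low medium. The changes were 0.59 ± 0.17 (adjusted p = 0.00425) in T2KO normal, 0.57 ± 0.17 (adjusted p = 0.00399) in WT low, 0.47 ± 0.17 (adjusted p = 0.0238) in WT normal and 0.31 ± 0.17 (adjusted p = 0.102) in T2KO low cells; none of the first 3 was called with libraries summed in pairs, and the WT normal call was lost with RLE size factors, with no filter, without WT normal LPS library 1 (0.41, adjusted p = 0.075) and without WT normal libraries 2 or 4 without LPS (0.42 and 0.41, adjusted p = 0.076 and 0.086). In low medium without LPS, Pgd was higher in T2KO than WT cells with no overlap, at 0.47 ± 0.17 (adjusted p = 0.0483), a call lost in 11 of 14 other settings. Pgls, the lactonase between these enzymes, was lower in 4 comparisons and higher in none. It stood at 34.6, 34, 33.8 and 27.2 CPM in T2KO low, 67.7, 67, 75.3 and 56 in T2KO normal, 43.4, 48.4, 36.4 and 65 in WT low and 82.8, 71.2, 73.8 and 64.1 in WT normal libraries with LPS. Without LPS, Pgls had 93, 62.7, 70.8 and 56.7 CPM in T2KO low, 60.8, 87.1, 58.3 and 79.1 in T2KO normal, 63.4, 39.2, 57.7 and 54.1 in WT low and 76.8, 73.8, 61 and 62.2 in WT normal libraries. The T2KO low LPS libraries were the lowest of all, below T2KO normal (log2 fold change -1.03 ± 0.19, adjusted p = 1.70e-05), below T2KO low without LPS (-1.12 ± 0.19, adjusted p = 3.05e-06) and below WT low with LPS (-0.57 ± 0.19, adjusted p = 0.0362). The last of these calls was lost in 11 of 14 other settings, among them 6 that each left out 1 library, with values of -0.39 to -0.59. In WT cells with LPS, low medium gave -0.60 ± 0.19 (adjusted p = 0.00833).

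**Figure D2:**
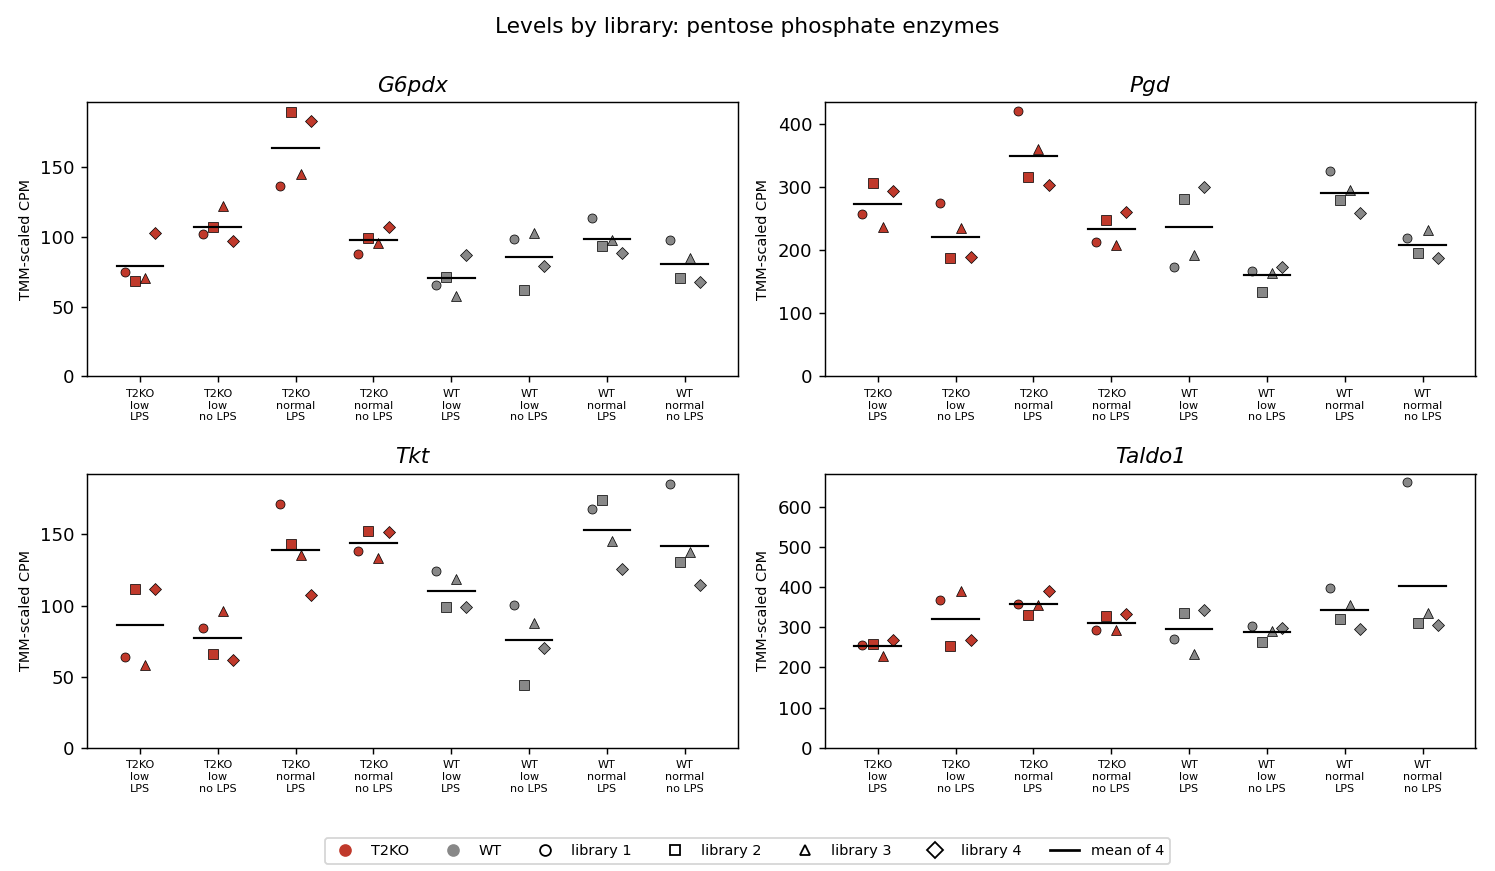
TMM-scaled CPM of G6pdx, Pgd, Tkt and Taldo1 in each of the 32 libraries, by group, on axes from 0; red is T2KO, grey is WT, marker shape is the library number and the bar is the mean of 4. G6pdx is highest in T2KO normal LPS libraries (137 to 190 CPM), and WT normal library 1 without LPS stands apart for Taldo1 (660.0 CPM).

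In the non-oxidative arm, Tkt fell with low medium in 3 of 4 comparisons. Tkt encodes transketolase, which moves carbon units between sugar phosphates. With LPS it stood at 64.2, 112, 58.1 and 112 CPM in T2KO low, 171, 143, 135 and 108 in T2KO normal, 125, 99.2, 119 and 99.3 in WT low and 168, 174, 145 and 126 in WT normal libraries. Without LPS, Tkt had 84.3, 66, 96.5 and 61.6 CPM in T2KO low, 138, 152, 133 and 152 in T2KO normal, 101, 44.4, 88 and 70.3 in WT low and 186, 131, 138 and 115 in WT normal libraries. Without LPS, low libraries lay below normal ones in both genotypes. For Tkt the changes in low medium were -0.69 ± 0.22 (adjusted p = 0.00665) in T2KO cells with LPS and -0.90 ± 0.22 (adjusted p = 7.05e-04) in T2KO cells without LPS. The WT Tkt changes were -0.47 ± 0.22 (adjusted p = 0.0721) with LPS and -0.91 ± 0.22 (adjusted p = 7.80e-04) without LPS. LPS raised Tkt in WT low cells by 0.54 ± 0.22 (adjusted p = 0.0305) with overlapping libraries, a call lost in pair sums, without WT low library 1 or 3 with LPS and without WT low library 2 or 4 without LPS (0.35 to 0.49). Rpe, the ribulose phosphate epimerase, was the member of this arm that LPS raised most. It stood at 86.1, 52.6, 103 and 44.7 CPM in T2KO low, 56.1, 50.2, 61.8 and 56.5 in T2KO normal, 43.1, 56.2, 56.2 and 68.9 in WT low and 53.9, 52.8, 55.5 and 58.1 in WT normal libraries with LPS. Without LPS, Rpe had 34.6, 24.8, 40.3 and 31.2 CPM in T2KO low, 52.5, 39, 58.1 and 44.6 in T2KO normal, 39.3, 23.4, 36.1 and 34.6 in WT low and 45.1, 39.7, 37.6 and 36 in WT normal libraries. In low medium the LPS libraries lay above the others in both genotypes, by 1.14 ± 0.20 (adjusted p = 7.95e-06) in T2KO and 0.75 ± 0.21 (adjusted p = 0.00223) in WT cells. Kansl1l overlaps Rpe, and strand use in counting is not given in the sources used here.

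Taldo1 (transaldolase) and Rpia (ribose 5-phosphate isomerase) completed the arm. Taldo1 varied little, its highest group mean being 1.60 times its lowest. Its call in WT cells without LPS in low medium (-0.48 ± 0.19, adjusted p = 0.0331) rested on WT normal library 1, at 660.0 CPM where libraries 2 to 4 had 310.3, 336 and 306 CPM; without that library the change was -0.11 with an adjusted p of 0.62, and without any one WT low library it was -0.44 to -0.47 and not called. In T2KO cells with LPS it was -0.51 ± 0.19 (adjusted p = 0.0196), not called with RLE size factors (-0.34, adjusted p = 0.12), with DESeq2, in pair sums or without T2KO low library 3 or T2KO normal library 4 (-0.45 and -0.44). Rpia was called in none of the 12 comparisons, with library values from 9.0 to 63.6 CPM. In every group its libraries 3 and 4 were above libraries 1 and 2, a split that 8 of the 11244 genes showed in all 8 groups. The opposite split, libraries 1 and 2 above 3 and 4, was shown by 7 genes, and each of the other 4 ways of dividing the libraries into pairs by 0 genes.

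Prps1 and Prps2 encode PRPP synthetase, which activates ribose 5-phosphate, and both were lower in low medium with LPS. Prps1 stood at 3.4, 0.666, 1.79 and 1.46 CPM in T2KO low, 19.7, 17.6, 17.7 and 9.96 in T2KO normal, 9.28, 3.31, 7.27 and 8.13 in WT low and 20.4, 16.7, 22.9 and 12.6 in WT normal libraries with LPS. Without LPS, Prps1 had 2.43, 2.54, 6.05 and 4.24 CPM in T2KO low, 14.9, 21.9, 11.3 and 18.8 in T2KO normal, 3.7, 4.87, 5.25 and 4.36 in WT low and 17.2, 13.7, 15.7 and 11.7 in WT normal libraries. Every low library lay below every normal library of the same genotype and LPS state. For Prps1 the changes in low medium were -3.1 ± 0.39 (adjusted p = 1.69e-08) in T2KO cells with LPS and -2.1 ± 0.30 (adjusted p = 2.74e-07) in T2KO cells without LPS. The WT Prps1 changes were -1.37 ± 0.32 (adjusted p = 6.26e-04) with LPS and -1.68 ± 0.30 (adjusted p = 1.99e-05) without LPS. With LPS in low medium, Prps1 was also lower in T2KO than WT cells, at -1.9 ± 0.43 (adjusted p = 0.00183), although the T2KO library with 3.4 CPM overlapped the WT library with 3.31 CPM. The medium effect differed between genotypes with LPS by -1.73 ± 0.52 (adjusted p = 0.0417), which was not called with libraries summed in pairs (adjusted p = 0.30), with RLE size factors (0.051) or without any one of 11 libraries taken in turn (-1.43 to -1.70).

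Prps2 was also lowered by LPS, in all but T2KO normal cells. It stood at 14.2, 11.7, 12.5 and 9.71 CPM in T2KO low, 30.1, 26.7, 23.9 and 29.2 in T2KO normal, 13.3, 11.6, 6.06 and 15 in WT low and 28.4, 22.9, 32.3 and 19.5 in WT normal libraries with LPS. Without LPS, Prps2 had 31.2, 34.4, 35.9 and 39.6 CPM in T2KO low, 37.7, 31.1, 39 and 33.8 in T2KO normal, 24.6, 22.4, 35.6 and 35.8 in WT low and 40.2, 40.8, 43.8 and 43.7 in WT normal libraries. In all 4 pairs of groups the LPS libraries lay below those without LPS. The changes with LPS were -1.54 ± 0.21 (adjusted p = 4.93e-08) in T2KO low, -0.37 ± 0.19 (adjusted p = 0.117) in T2KO normal, -1.36 ± 0.21 (adjusted p = 1.11e-06) in WT low and -0.70 ± 0.19 (adjusted p = 0.00283) in WT normal cells, the last of them not called in pair sums. With LPS, low medium gave -1.17 ± 0.21 (adjusted p = 1.21e-05) in T2KO and -1.17 ± 0.22 (adjusted p = 3.28e-05) in WT cells. Without LPS the change in low medium was -0.00 ± 0.19 (adjusted p = 0.987) in T2KO cells and -0.51 ± 0.19 (adjusted p = 0.0246) in WT cells. The WT call was lost in 6 of 14 other settings, among them the pair sums and leaving out WT low library 1 or 2 or WT normal library 3 or 4 (-0.40 to -0.46). The difference between LPS states in T2KO cells was -1.17 ± 0.28 (adjusted p = 0.00149). How any reads shared by Prps1 and Prps2 were counted is not given in the sources used here. The same holds for Impdh1 and Impdh2, Ctps and Ctps2, and Nme1 and Nme2.

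**Figure D3:**
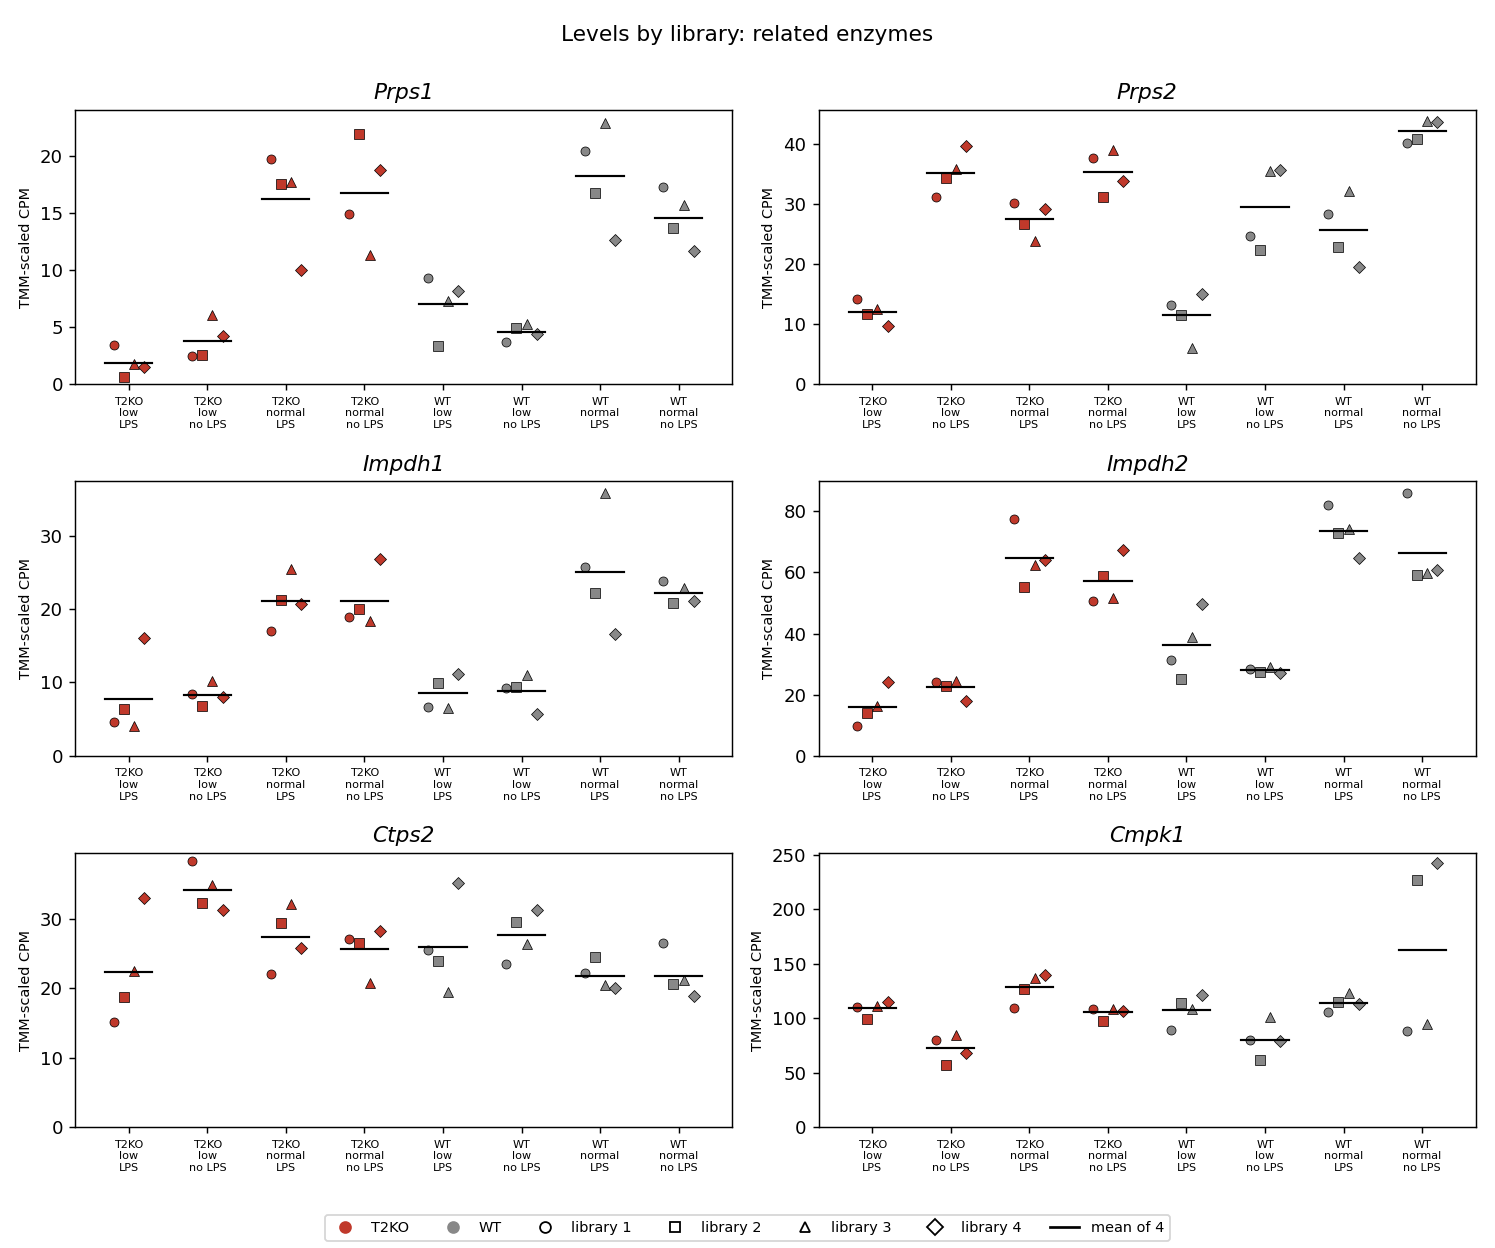
TMM-scaled CPM by library of Prps1, Prps2, Impdh1, Impdh2, Ctps2 and Cmpk1, on axes from 0, with colours and markers for genotype and library number as in the legend and bars for the mean of 4. Prps1 divides by medium, while Prps2 is lowest in both low LPS groups (6.06 to 15.0 CPM); Cmpk1 divides into libraries 2 and 4 against 1 and 3 in WT normal cells without LPS.

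De novo purine synthesis to IMP fell with low medium at nearly every step: 5 of 6 enzymes in T2KO cells with LPS, 6 of 6 in T2KO cells without LPS, 4 of 6 in WT cells with LPS and 5 of 6 in WT cells without LPS. Ppat encodes the amidotransferase that opens the pathway. It stood at 4.01, 5.66, 10.2 and 0.971 CPM in T2KO low, 7.86, 5.44, 11.2 and 7.31 in T2KO normal, 12.6, 2.48, 10.9 and 12.8 in WT low and 9.79, 11.9, 12.1 and 12.1 in WT normal libraries with LPS. Without LPS, Ppat had 7.45, 7.63, 7.98 and 7.55 CPM in T2KO low, 28.5, 21.6, 25.9 and 24.6 in T2KO normal, 9.06, 25.1, 11.1 and 21.5 in WT low and 29.1, 23.6, 27.2 and 25.7 in WT normal libraries. All 4 T2KO low libraries without LPS lay below the WT low libraries and the T2KO normal ones. The change in low medium was -1.72 ± 0.32 (adjusted p = 2.43e-05) in T2KO cells without LPS and -0.66 ± 0.31 (adjusted p = 0.0748) in WT cells without LPS, and the difference of T2KO from WT in low medium was -1.12 ± 0.32 (adjusted p = 0.0116). That genotype call was lost without WT low library 2 (-0.85, adjusted p = 0.096) and with libraries summed in pairs (adjusted p = 0.085). LPS lowered Ppat in normal medium, with no overlap, at -1.63 ± 0.33 (adjusted p = 8.15e-05) in T2KO and -1.21 ± 0.31 (adjusted p = 0.00212) in WT cells. In low medium the WT libraries overlapped (-0.77 ± 0.35, adjusted p = 0.0532).

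Paics encodes the bifunctional enzyme in the middle of the pathway and is divergent from Ppat. With LPS it stood at 26.9, 55, 37.9 and 68.9 CPM in T2KO low, 113, 76.1, 114 and 112 in T2KO normal, 90.5, 45.9, 102 and 59 in WT low and 104, 166, 108 and 151 in WT normal libraries. Without LPS, Paics had 66.9, 95.5, 77.9 and 91.1 CPM in T2KO low, 96.8, 125, 111 and 145 in T2KO normal, 79.7, 77.2, 93.3 and 72.5 in WT low and 189, 229.5, 191 and 228 in WT normal libraries. WT normal libraries without LPS were the highest of all 8 groups. For Paics the changes in low medium were -1.15 ± 0.23 (adjusted p = 6.16e-05) in T2KO cells with LPS, -0.53 ± 0.22 (adjusted p = 0.0483) in T2KO cells without LPS, -0.83 ± 0.23 (adjusted p = 0.0031) in WT cells with LPS and -1.38 ± 0.23 (adjusted p = 5.50e-06) in WT cells without LPS, of which the T2KO value without LPS was lost in 10 of 14 other settings. LPS gave -0.83 ± 0.23 (adjusted p = 0.00195) in T2KO low and -0.66 ± 0.22 (adjusted p = 0.0172) in WT normal cells, the second lost in pair sums and without WT normal library 1 or 3 with LPS (-0.56 and -0.58). Paics was the one member called between genotypes in normal medium without LPS, at -0.81 ± 0.22 (adjusted p = 0.0447), with no overlap. That call was lost in 7 of 14 other settings, among them 6 that each left out 1 library (-0.73 to -0.86) and the pair sums (adjusted p = 0.78). In low medium with LPS it was -0.67 ± 0.24 (adjusted p = 0.0397), with overlapping libraries, and was lost in 7 of 14 other settings, among them leaving out library 1 or 3 of either group (-0.47 to -0.58).

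Pfas, the FGAM synthase, was among the least detected members. It stood at 0.926, 0.333, 0 and 3.4 CPM in T2KO low, 3.93, 2.22, 5.74 and 6.31 in T2KO normal, 4.31, 3.31, 0 and 3.42 in WT low and 6.06, 5.77, 8.34 and 2.97 in WT normal libraries with LPS. Without LPS, Pfas had 5.62, 3.56, 3.03 and 2.71 CPM in T2KO low, 9.21, 7.44, 6.71 and 10.1 in T2KO normal, 1.91, 2.56, 3.5 and 3.53 in WT low and 7.92, 7.66, 10.5 and 8.58 in WT normal libraries. The 0 in 1 T2KO low and 1 WT low library with LPS means under the floor of 3 counts. Low medium gave -2.28 ± 0.61 (adjusted p = 0.00157) in T2KO cells with LPS, -1.19 ± 0.41 (adjusted p = 0.0156) in T2KO cells without LPS and -1.6 ± 0.43 (adjusted p = 0.00243) in WT cells without LPS. In T2KO low cells LPS gave -1.93 ± 0.61 (adjusted p = 0.00556). Adsl encodes adenylosuccinate lyase, which acts both here and on the way to AMP. It stood at 8.34, 6.0, 8.96 and 4.37 CPM in T2KO low, 23.6, 18, 26.1 and 21.9 in T2KO normal, 10.6, 9.09, 12.5 and 8.98 in WT low and 22.3, 27.9, 14 and 24.7 in WT normal libraries with LPS. Without LPS, Adsl had 8.36, 11, 12.6 and 10.3 CPM in T2KO low, 18.1, 22.6, 23 and 23.3 in T2KO normal, 11.2, 8.84, 9.63 and 10.1 in WT low and 24.2, 20.4, 15.2 and 17.3 in WT normal libraries. Its low and normal libraries did not overlap in any of the 4 comparisons, with changes of -1.66 ± 0.24 (adjusted p = 2.53e-07) in T2KO cells with LPS and -1.04 ± 0.21 (adjusted p = 8.27e-05) in T2KO cells without LPS. The WT Adsl changes were -1.11 ± 0.23 (adjusted p = 1.66e-04) with LPS and -0.95 ± 0.21 (adjusted p = 3.46e-04) without LPS. Gart, the trifunctional enzyme of the early steps, was called lower in all 4 medium comparisons (-1.63 to -0.77).

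Atic encodes the bifunctional enzyme that closes the ring to IMP. It stood at 34.6, 21, 30.2 and 13.1 CPM in T2KO low, 38.7, 70.2, 36.9 and 54.8 in T2KO normal, 26.2, 26.5, 23.4 and 24.4 in WT low and 56.2, 38.9, 44.3 and 40.1 in WT normal libraries with LPS. Without LPS, Atic had 22.5, 14.1, 18.3 and 12.4 CPM in T2KO low, 44.5, 54.8, 45.4 and 46.7 in T2KO normal, 29.2, 44.3, 23.6 and 33.7 in WT low and 66.6, 44.4, 49 and 41.6 in WT normal libraries. The T2KO low libraries without LPS were lower than both the T2KO normal and the WT low libraries. The medium effects were -0.99 ± 0.24 (adjusted p = 6.40e-04) in T2KO cells with LPS, -1.52 ± 0.23 (adjusted p = 1.36e-06) in T2KO cells without LPS, -0.84 ± 0.24 (adjusted p = 0.00488) in WT cells with LPS and -0.62 ± 0.23 (adjusted p = 0.0251) in WT cells without LPS, and the WT value without LPS was lost without WT low library 1, 3 or 4 or WT normal library 1 (-0.43 to -0.61). The genotype difference in low medium without LPS was -0.97 ± 0.23 (adjusted p = 0.00278), which was not called in pair sums (adjusted p = 0.083). In T2KO low cells LPS raised Atic (0.59 ± 0.24, adjusted p = 0.0308) where 4 other members of the purine pathway fell. This rise was lost in pair sums, with the compared groups alone, and without T2KO low library 1 or 3 with LPS (0.39 and 0.47) or library 2 or 4 without LPS (0.48 and 0.43).

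**Figure D4:**
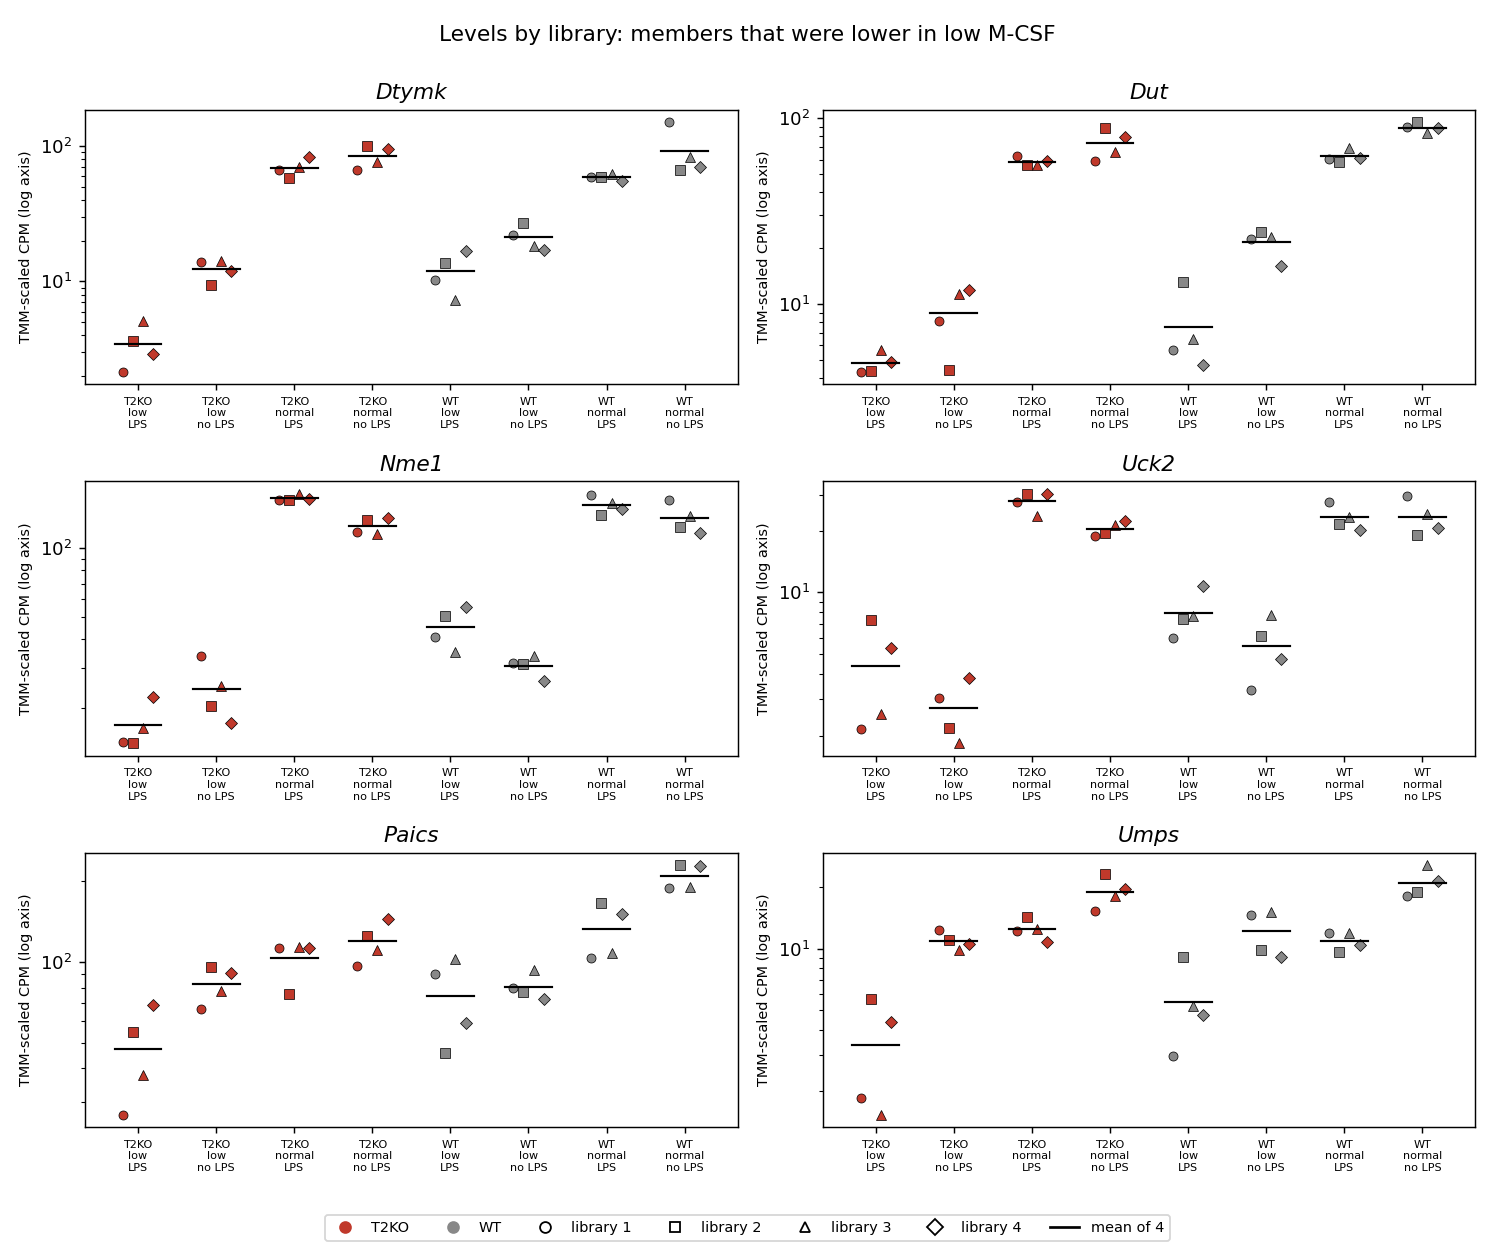
TMM-scaled CPM by library, on log axes, of 6 members called lower in low M-CSF in all 4 comparisons; red is T2KO, grey is WT, marker shape is the library number and the bar is the mean of 4. Low groups lie below normal groups of the same genotype and LPS state in every panel, and Dtymk is lowest in T2KO low LPS libraries (2.16 to 5.12 CPM).

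The branch from IMP to AMP and GMP was divided. Impdh1 and Impdh2 encode IMP dehydrogenase, which limits guanine nucleotide synthesis, and both fell with low medium. Impdh2 stood at 9.57, 14, 16.1 and 24.3 CPM in T2KO low, 77.6, 55.4, 62.3 and 63.9 in T2KO normal, 31.5, 25.2, 38.8 and 49.6 in WT low and 82.2, 72.9, 74.3 and 64.8 in WT normal libraries with LPS. Without LPS, Impdh2 had 24.2, 22.7, 24.5 and 18 CPM in T2KO low, 50.6, 58.9, 51.6 and 67.4 in T2KO normal, 28.5, 27.4, 29 and 27 in WT low and 86, 59.1, 59.7 and 60.8 in WT normal libraries. Every low library was below every normal one, and the T2KO low libraries were below the WT low libraries with and without LPS. For Impdh2 the changes in low medium were -2.05 ± 0.21 (adjusted p = 4.08e-10) in T2KO cells with LPS and -1.36 ± 0.19 (adjusted p = 3.64e-07) in T2KO cells without LPS. The WT Impdh2 changes were -1.02 ± 0.20 (adjusted p = 7.36e-05) with LPS and -1.25 ± 0.19 (adjusted p = 2.47e-06) without LPS. With LPS in low medium the genotype difference was -1.21 ± 0.22 (adjusted p = 1.54e-04), and the medium effect differed between genotypes by -1.02 ± 0.29 (adjusted p = 0.0333); the second was not called in pair sums (adjusted p = 0.34) or without any one of 8 libraries (-0.82 to -1.02). LPS gave -0.51 ± 0.21 (adjusted p = 0.0346) in T2KO low cells, lost in 7 of 14 other settings, among them leaving out T2KO low library 1 or 2 with LPS or library 3 without LPS (-0.33 to -0.49).

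Impdh1 stood at 4.63, 6.33, 4.1 and 16 CPM in T2KO low, 17, 21.3, 25.4 and 20.8 in T2KO normal, 6.63, 9.92, 6.46 and 11.1 in WT low and 25.8, 22.2, 35.8 and 16.6 in WT normal libraries with LPS. Without LPS, Impdh1 had 8.36, 6.83, 10.2 and 7.98 CPM in T2KO low, 18.9, 20.0, 18.4 and 26.8 in T2KO normal, 9.19, 9.35, 10.9 and 5.71 in WT low and 23.8, 20.8, 22.9 and 21.1 in WT normal libraries. Low and normal libraries did not overlap in any comparison, and the changes were -1.54 ± 0.30 (adjusted p = 3.66e-05) in T2KO cells with LPS and -1.33 ± 0.26 (adjusted p = 6.60e-05) in T2KO cells without LPS. The WT Impdh1 changes were -1.57 ± 0.29 (adjusted p = 4.31e-05) with LPS and -1.33 ± 0.27 (adjusted p = 1.02e-04) without LPS. Gmps encodes GMP synthase and Adss adenylosuccinate synthase, the first step to AMP; neither followed Impdh1 and Impdh2. Gmps stood at 53.4, 31.3, 34.8 and 31.6 CPM in T2KO low, 32.3, 35.1, 29 and 38 in T2KO normal, 39.4, 57, 44 and 68.9 in WT low and 37.1, 39.8, 39.4 and 29.4 in WT normal libraries with LPS. Without LPS, Gmps had 32.7, 38, 31.2 and 38.9 CPM in T2KO low, 48.8, 37.6, 39.6 and 40.6 in T2KO normal, 36.5, 38.8, 36.9 and 25.3 in WT low and 28.7, 50.9, 42.1 and 50.6 in WT normal libraries. With LPS it was higher in WT low than WT normal cells by 0.51 ± 0.20 (adjusted p = 0.034), with overlapping libraries, and the call was lost in 6 of 14 other settings, among them leaving out WT low library 2 or 4 or WT normal library 1 or 4 (0.36 to 0.53). LPS raised it in WT low cells by 0.60 ± 0.20 (adjusted p = 0.00974) with no overlap, lost in pair sums and without WT low library 4 with LPS (0.42, adjusted p = 0.080) or without LPS (0.43, adjusted p = 0.075). Slc33a1 overlaps Gmps.

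Adss stood at 135, 233, 146 and 154 CPM in T2KO low, 58.8, 43, 51.9 and 52.6 in T2KO normal, 105, 66.5, 104 and 65 in WT low and 65.5, 235, 60.3 and 214 in WT normal libraries with LPS. Without LPS, Adss had 52.6, 83.6, 61.1 and 89.9 CPM in T2KO low, 53.8, 53.7, 52 and 59.7 in T2KO normal, 122, 59.4, 124 and 68.2 in WT low and 98.2, 70.7, 123 and 67.4 in WT normal libraries. The T2KO low LPS libraries lay above all T2KO libraries of the other 3 groups, while WT normal LPS libraries fell into 2 levels, with libraries 2 and 4 more than 3 times libraries 1 and 3. The other WT groups also divided, but with libraries 1 and 3 above 2 and 4. In WT low libraries with LPS these were 105 and 104 against 66.5 and 65 CPM. All Adss values against WT rest on these divided groups. In T2KO low cells without LPS libraries 2 and 4 were above 1 and 3. In T2KO cells with LPS low medium raised Adss by 1.69 ± 0.32 (adjusted p = 2.14e-05), and in T2KO low cells LPS raised it by 1.22 ± 0.31 (adjusted p = 8.08e-04). Against WT it was 0.97 ± 0.31 (adjusted p = 0.026) in low and -1.47 ± 0.31 (adjusted p = 0.00356) in normal medium with LPS, and the medium effect differed between genotypes by 2.44 ± 0.44 (adjusted p = 0.00129). Neither genotype value nor the difference was called with libraries summed in pairs (adjusted p = 0.20, 0.19 and 0.13), and the value in low medium was lost without T2KO low library 2 (0.77, adjusted p = 0.10) or WT low library 2 or 4 (0.88 and 0.86). In WT cells with LPS low medium gave -0.75 ± 0.31 (adjusted p = 0.0469), lost in 9 of 14 other settings, among them leaving out library 2 or 4 of either group (-0.40 to -0.64). Gm16585 overlaps Adss.

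**Figure D5:**
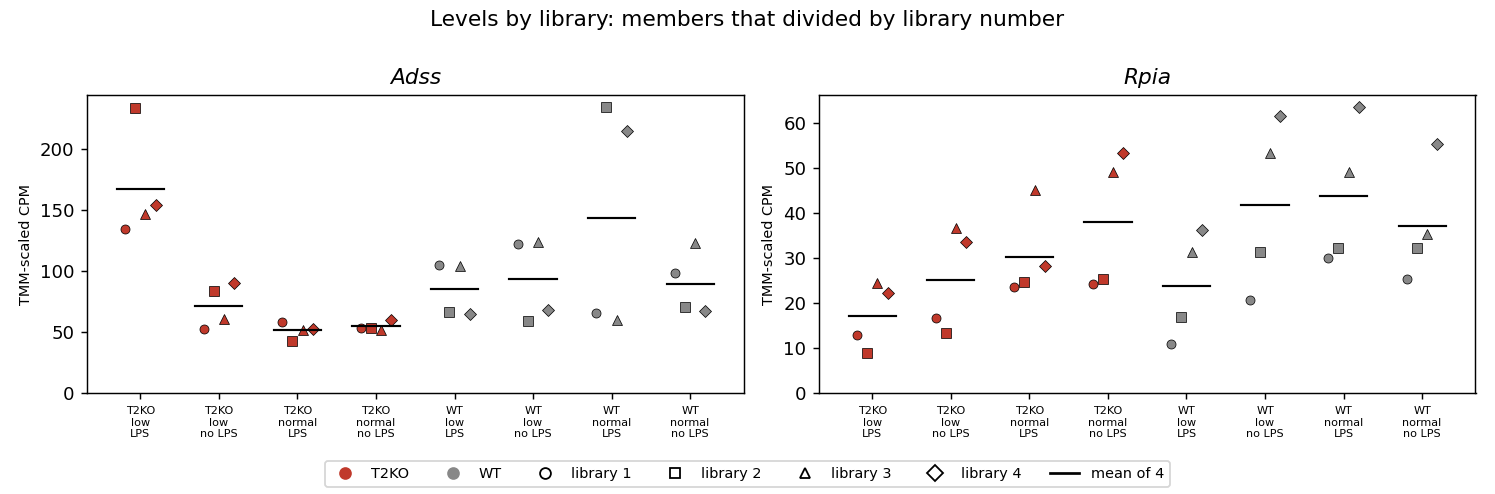
TMM-scaled CPM by library of Adss and Rpia, on axes from 0, with marker shape for the library number and bars for the mean of 4. Adss libraries 2 and 4 lie above 1 and 3 in WT normal cells with LPS, whereas libraries 1 and 3 lie above 2 and 4 in the other WT groups. In all 8 groups the Rpia values of libraries 3 and 4 lie above those of libraries 1 and 2.

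Of the purine salvage enzymes, Aprt fell with low medium in all 4 comparisons and Hprt in 3. Aprt, which salvages adenine, stood at 73.2, 44.7, 54.5 and 45.6 CPM in T2KO low, 218, 195, 201 and 143 in T2KO normal, 84.5, 83.9, 61.8 and 95.4 in WT low and 221, 199, 203 and 186 in WT normal libraries with LPS. Without LPS, Aprt had 96.8, 59.3, 90.6 and 64.8 CPM in T2KO low, 154, 200.4, 169 and 211 in T2KO normal, 95.4, 66.6, 108 and 88.6 in WT low and 261, 185, 192 and 183 in WT normal libraries. No low library reached a normal one. The changes were -1.79 ± 0.20 (adjusted p = 1.26e-09) in T2KO cells with LPS and -1.24 ± 0.19 (adjusted p = 1.15e-06) in T2KO cells without LPS. The WT Aprt changes were -1.31 ± 0.19 (adjusted p = 1.02e-06) with LPS and -1.19 ± 0.19 (adjusted p = 3.21e-06) without LPS. With LPS in low medium T2KO was lower than WT (-0.57 ± 0.20, adjusted p = 0.036), with overlapping libraries, a call lost in 9 of 14 other settings, among them leaving out any one of 6 of the 8 libraries (-0.48 to -0.57). LPS gave -0.51 ± 0.19 (adjusted p = 0.0199) in T2KO low cells, lost in 7 of 14 other settings, among them leaving out T2KO low library 2 or 4 with LPS or library 1 without LPS (-0.42 to -0.45). Hprt, which salvages hypoxanthine and guanine, gave -0.88 ± 0.16 (adjusted p = 1.58e-05) in T2KO and -0.63 ± 0.16 (adjusted p = 0.00162) in WT cells with LPS.

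Pyrimidine synthesis held some of the largest changes, in genes of low counts. Cad, which Atraid overlaps, encodes the trifunctional enzyme of the first steps. It stood at 1.85, 1.0, 0.256 and 0 CPM in T2KO low, 11.8, 7.91, 10.3 and 10.3 in T2KO normal, 3.31, 0.827, 4.04 and 2.14 in WT low and 13.5, 13.3, 14.4 and 11.9 in WT normal libraries with LPS. Without LPS, Cad had 8.36, 3.27, 4.86 and 4.29 CPM in T2KO low, 11.1, 10.6, 10.0 and 16 in T2KO normal, 2.42, 2.43, 4.52 and 3.36 in WT low and 20.4, 10.4, 11.1 and 9.0 in WT normal libraries. The T2KO low LPS libraries, with 1 of them at 0, were below those of T2KO low without LPS. The medium effects were -3.6 ± 0.48 (adjusted p = 7.29e-08) in T2KO cells with LPS and -1.23 ± 0.31 (adjusted p = 0.0014) in T2KO cells without LPS. The WT Cad changes were -2.34 ± 0.40 (adjusted p = 1.04e-05) with LPS and -2.01 ± 0.33 (adjusted p = 6.72e-06) without LPS. In T2KO low cells LPS lowered Cad, with a log2 fold change of -2.6 ± 0.50 (adjusted p = 2.38e-05). Against WT low LPS cells it was -1.66 ± 0.61 (adjusted p = 0.0497), with overlapping libraries, and that call was lost without T2KO low library 2, 3 or 4 or WT low library 1, 3 or 4 (-1.28 to -1.76), with RLE size factors, with no filter and in pair sums.

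Umps encodes the enzyme of the last steps to UMP and was the one member lowered by LPS in all 4 comparisons. It stood at 1.85, 5.66, 1.54 and 4.37 CPM in T2KO low, 12.2, 14.3, 12.4 and 10.8 in T2KO normal, 2.98, 9.09, 5.25 and 4.71 in WT low and 11.9, 9.66, 11.9 and 10.4 in WT normal libraries with LPS. Without LPS, Umps had 12.3, 11, 9.81 and 10.6 CPM in T2KO low, 15.2, 23.1, 18.1 and 19.5 in T2KO normal, 14.7, 9.86, 15.2 and 9.06 in WT low and 18.1, 18.9, 25.5 and 21.5 in WT normal libraries. The LPS libraries lay below the others in 3 of the 4 pairs of groups, and in WT low cells 1 LPS library exceeded 1 library without LPS. The changes with LPS were -1.76 ± 0.31 (adjusted p = 6.00e-06) in T2KO low, -0.61 ± 0.25 (adjusted p = 0.0428) in T2KO normal, -1.17 ± 0.29 (adjusted p = 8.31e-04) in WT low and -0.94 ± 0.24 (adjusted p = 0.00215) in WT normal cells. In pair sums the normal-medium values were not called (adjusted p = 0.20 in T2KO and 0.064 in WT cells), and the T2KO normal call was lost without any one of 6 of its 8 libraries (-0.53 to -0.65). For Umps the changes in low medium were -1.95 ± 0.31 (adjusted p = 2.10e-06) in T2KO cells with LPS and -0.80 ± 0.24 (adjusted p = 0.00611) in T2KO cells without LPS. The WT Umps changes were -1.01 ± 0.30 (adjusted p = 0.00522) with LPS and -0.78 ± 0.24 (adjusted p = 0.00796) without LPS.

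Ctps and Ctps2 encode CTP synthases, which make CTP from UTP. Ctps stood at 2.78, 0.333, 2.3 and 0 CPM in T2KO low, 8.3, 6.18, 5.97 and 5.15 in T2KO normal, 3.64, 3.31, 3.64 and 5.13 in WT low and 9.44, 14.7, 9.58 and 10.4 in WT normal libraries with LPS. Without LPS, Ctps had 0.152, 1.74, 0.55 and 1.03 CPM in T2KO low, 11.2, 8.2, 10.2 and 8.68 in T2KO normal, 1.79, 3.46, 1.17 and 1.34 in WT low and 12.4, 11.7, 10.1 and 8.58 in WT normal libraries. No low library reached a normal library, and the changes were -2.06 ± 0.48 (adjusted p = 3.40e-04) in T2KO cells with LPS and -3.31 ± 0.40 (adjusted p = 1.15e-08) in T2KO cells without LPS. The WT Ctps changes were -1.49 ± 0.41 (adjusted p = 0.00285) with LPS and -2.44 ± 0.38 (adjusted p = 3.07e-06) without LPS. Ctps2 was not called for medium in any comparison (log2 fold change -0.31 to 0.41), and was lowered by LPS in T2KO low cells (-0.63 ± 0.20, adjusted p = 0.00563). Dhodh, the mitochondrial dehydrogenase of the pathway, stood at 1.85, 3.0, 1.54 and 0.971 CPM in T2KO low, 4.37, 6.18, 5.5 and 6.14 in T2KO normal, 1.99, 0, 0 and 2.57 in WT low and 7.71, 5.07, 3.9 and 7.17 in WT normal libraries with LPS. Without LPS, Dhodh had 6.69, 3.78, 6.33 and 2.99 CPM in T2KO low, 6.52, 6.98, 5.47 and 13.5 in T2KO normal, 3.06, 1.41, 2.77 and 3.02 in WT low and 9.55, 7.9, 7.96 and 7.17 in WT normal libraries. Its low libraries lay below the normal ones except in T2KO cells without LPS, with changes of -1.56 ± 0.48 (adjusted p = 0.00539) in T2KO cells with LPS and -0.73 ± 0.36 (adjusted p = 0.099) in T2KO cells without LPS. The WT Dhodh changes were -2.35 ± 0.53 (adjusted p = 4.50e-04) with LPS and -1.67 ± 0.39 (adjusted p = 6.36e-04) without LPS.

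The kinases held the member with the widest range. Dtymk encodes thymidylate kinase, which makes dTDP from dTMP for DNA synthesis, and its highest group mean was 26.5 times its lowest. It stood at 2.16, 3.67, 5.12 and 2.91 CPM in T2KO low, 66, 58.3, 69.9 and 82.4 in T2KO normal, 10.3, 13.6, 7.27 and 16.7 in WT low and 58.4, 58.4, 62.1 and 55.2 in WT normal libraries with LPS. Without LPS, Dtymk had 14, 9.45, 14.2 and 11.9 CPM in T2KO low, 66.3, 99.3, 76 and 95.3 in T2KO normal, 21.9, 27.1, 18.4 and 17 in WT low and 149, 66.4, 82.2 and 69.6 in WT normal libraries. Low libraries lay far below normal ones in all 4 comparisons, and T2KO low libraries below WT low libraries with and without LPS. For Dtymk the changes in low medium were -4.27 ± 0.29 (adjusted p = 1.88e-14) in T2KO cells with LPS and -2.77 ± 0.23 (adjusted p = 2.57e-12) in T2KO cells without LPS. The WT Dtymk changes were -2.3 ± 0.25 (adjusted p = 4.54e-09) with LPS and -2.12 ± 0.23 (adjusted p = 2.00e-09) without LPS. In low medium the difference of T2KO from WT was -1.74 ± 0.33 (adjusted p = 2.55e-04) with LPS and -0.78 ± 0.23 (adjusted p = 0.016) without LPS, and with LPS the medium effect differed between genotypes by -1.98 ± 0.40 (adjusted p = 0.00304). In pair sums the value with LPS remained called, whereas that without LPS (adjusted p = 0.15) and the difference (adjusted p = 0.12) were not. The value without LPS was also lost without T2KO low library 2 (-0.66, adjusted p = 0.062) or WT low library 2 (-0.63, adjusted p = 0.091).

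LPS lowered Dtymk, at -1.79 ± 0.30 (adjusted p = 3.13e-06) in T2KO low, -0.83 ± 0.26 (adjusted p = 0.00555) in WT low and -0.65 ± 0.22 (adjusted p = 0.0172) in WT normal cells; without WT normal library 1, at 149 CPM, the last was -0.34 (adjusted p = 0.20), and it was not called in pair sums either. Nme1 and Nme2 encode nucleoside diphosphate kinases. Nme1 stood at 14.2, 14, 16.4 and 22.3 CPM in T2KO low, 163, 163, 173 and 164 in T2KO normal, 40.8, 50.4, 35.1 and 55.2 in WT low and 171, 140.3, 158 and 149 in WT normal libraries with LPS. Without LPS, Nme1 had 33.9, 20.3, 25 and 17.2 CPM in T2KO low, 118, 134, 116 and 135 in T2KO normal, 31.4, 31.1, 33.6 and 26.2 in WT low and 162, 124, 138 and 117 in WT normal libraries. No low library reached a normal one, and T2KO low LPS libraries lay below WT low LPS libraries. The medium effects were -3.32 ± 0.20 (adjusted p = 6.11e-16) in T2KO cells with LPS and -2.39 ± 0.18 (adjusted p = 1.29e-13) in T2KO cells without LPS. The WT Nme1 changes were -1.77 ± 0.18 (adjusted p = 8.46e-10) with LPS and -2.14 ± 0.18 (adjusted p = 4.73e-12) without LPS. With LPS the genotype difference in low medium was -1.45 ± 0.20 (adjusted p = 2.05e-06) and the medium effect differed between genotypes by -1.55 ± 0.26 (adjusted p = 5.62e-04), of which the second was not called in pair sums (adjusted p = 0.12). LPS lowered Nme1 in T2KO low cells (-0.53 ± 0.19, adjusted p = 0.0142) and raised it in WT low cells (0.57 ± 0.18, adjusted p = 0.00711); without T2KO low library 1 without LPS the first was -0.37 (adjusted p = 0.082), and neither was called in pair sums. Nme2 was lower in low medium in all 4 comparisons (-1.98 to -1.21) and in T2KO against WT low cells with LPS (-0.74 ± 0.18, adjusted p = 0.00291), the second not called in pair sums.

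Uck2 encodes the main uridine and cytidine kinase of salvage. It stood at 2.16, 7.33, 2.56 and 5.34 CPM in T2KO low, 27.5, 30.2, 23.6 and 30.2 in T2KO normal, 5.96, 7.44, 7.68 and 10.7 in WT low and 27.7, 21.6, 23.4 and 20.0 in WT normal libraries with LPS. Without LPS, Uck2 had 3.04, 2.18, 1.83 and 3.8 CPM in T2KO low, 18.7, 19.4, 21.2 and 22.2 in T2KO normal, 3.32, 6.15, 7.74 and 4.7 in WT low and 29.6, 19.1, 24.1 and 20.7 in WT normal libraries. No low library reached a normal one. The changes were -2.72 ± 0.30 (adjusted p = 1.23e-09) in T2KO cells with LPS and -2.89 ± 0.27 (adjusted p = 2.84e-11) in T2KO cells without LPS. The WT Uck2 changes were -1.56 ± 0.28 (adjusted p = 2.09e-05) with LPS and -2.09 ± 0.26 (adjusted p = 3.72e-08) without LPS. In low medium without LPS T2KO was lower than WT (-0.99 ± 0.28, adjusted p = 0.0116), with 1 T2KO library above 1 WT library, and the call was lost without T2KO low library 3 (-0.85, adjusted p = 0.054) or WT low library 3 (-0.78, adjusted p = 0.073), in pair sums (adjusted p = 0.13) and with the compared groups alone (adjusted p = 0.056). Cmpk1, the UMP and CMP kinase, stood at 111, 99.6, 111 and 115 CPM in T2KO low, 109, 127, 137 and 140.1 in T2KO normal, 88.8, 114, 108 and 122 in WT low and 105, 115, 123 and 113 in WT normal libraries with LPS. Without LPS, Cmpk1 had 79.9, 57.4, 84.3 and 68.6 CPM in T2KO low, 108, 97.8, 109 and 107 in T2KO normal, 79.7, 61.6, 101 and 79.2 in WT low and 88.5, 227, 94.3 and 243 in WT normal libraries. In WT normal cells without LPS libraries 2 and 4 were more than 2 times libraries 1 and 3. Low medium gave -0.54 ± 0.22 (adjusted p = 0.0369) in T2KO and -1.02 ± 0.22 (adjusted p = 2.22e-04) in WT cells without LPS, and the T2KO call was lost in 8 of 14 other settings. The WT call was lost in 0 of 14. However, the WT low libraries (61.6 to 101 CPM) overlapped WT normal libraries 1 and 3 (88.5 and 94.3 CPM). The WT change thus rested largely on normal libraries 2 and 4. LPS raised Cmpk1 in T2KO low cells (0.59 ± 0.22, adjusted p = 0.0173) with no overlap, where Dtymk, Nme1 and Guk1 fell; the call was lost in pair sums and without T2KO low library 2 or 4 without LPS (0.45 and 0.52). Guk1, guanylate kinase, was lower in T2KO low LPS libraries than in T2KO normal LPS (-1.11 ± 0.28, adjusted p = 8.84e-04) and T2KO low libraries without LPS (-1.5 ± 0.27, adjusted p = 1.11e-05).

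Dut and Dctpp1 encode hydrolases that remove dUTP and unwanted dCTP analogues from the nucleotide pool. Dut stood at 4.32, 4.33, 5.63 and 4.86 CPM in T2KO low, 62.5, 56.4, 56 and 58.8 in T2KO normal, 5.63, 13.2, 6.46 and 4.71 in WT low and 60.3, 58.4, 69.3 and 61.4 in WT normal libraries with LPS. Without LPS, Dut had 8.05, 4.43, 11.4 and 11.9 CPM in T2KO low, 59.1, 89.3, 65.9 and 79.5 in T2KO normal, 22.5, 24.6, 23.1 and 16.1 in WT low and 89.6, 95.2, 83.4 and 88.3 in WT normal libraries. Low libraries lay below normal ones in all 4 comparisons without overlap, and T2KO low libraries below WT low libraries without LPS. For Dut the changes in low medium were -3.6 ± 0.27 (adjusted p = 1.54e-13) in T2KO cells with LPS, -3.02 ± 0.23 (adjusted p = 1.28e-13) in T2KO cells without LPS, -3.06 ± 0.26 (adjusted p = 1.16e-11) in WT cells with LPS and -2.04 ± 0.22 (adjusted p = 1.43e-09) in WT cells without LPS, and the genotype difference in low medium without LPS was -1.26 ± 0.22 (adjusted p = 6.09e-05), called in pair sums too. LPS lowered Dut, at -0.90 ± 0.28 (adjusted p = 0.00468) in T2KO low, -1.53 ± 0.26 (adjusted p = 4.15e-06) in WT low and -0.52 ± 0.21 (adjusted p = 0.048) in WT normal cells, the last lost in 11 of 14 other settings, among them each of the 8 that left out 1 library (-0.48 to -0.57). Dctpp1 stood at 4.94, 7.33, 1.79 and 0.971 CPM in T2KO low, 25.3, 21.3, 31.6 and 20.6 in T2KO normal, 5.3, 8.27, 11.3 and 11.6 in WT low and 29.7, 21.6, 27.1 and 19.3 in WT normal libraries with LPS. Without LPS, Dctpp1 had 16, 11.4, 18.3 and 12.3 CPM in T2KO low, 22.1, 30.5, 22.6 and 30.4 in T2KO normal, 13.5, 10.1, 8.9 and 11.4 in WT low and 21.3, 23.2, 28.5 and 26.7 in WT normal libraries. Its medium effects were -2.68 ± 0.32 (adjusted p = 7.08e-09) in T2KO cells with LPS and -0.87 ± 0.25 (adjusted p = 0.00451) in T2KO cells without LPS. The WT Dctpp1 changes were -1.44 ± 0.29 (adjusted p = 1.03e-04) with LPS and -1.18 ± 0.26 (adjusted p = 3.15e-04) without LPS. In T2KO low cells LPS gave -1.9 ± 0.32 (adjusted p = 2.87e-06) with no overlap, and with LPS in low medium T2KO was -1.22 ± 0.36 (adjusted p = 0.0136) against WT with overlapping libraries; the second was lost in pair sums, with the compared groups alone, without T2KO low library 3 (-0.94, adjusted p = 0.076) or WT low library 4 (-1.09, adjusted p = 0.051).

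The interaction tests asked whether one factor's effect varied with another. The medium effect differed between genotypes for 5 members with LPS (5.49% of all genes called, 2.2% positive, 3.29% negative): Adss in the positive direction and Prps1, Impdh2, Dtymk and Nme1 in the negative one, given above. Without LPS no member was called by edgeR (4.62% of all genes called, 1.41% positive, 3.21% negative), 6 had an unadjusted p under 0.05, and DESeq2 called 1. The LPS effect differed between media for 15 members in T2KO cells (35.3% of all genes called, 13.3% positive, 22% negative), 13 of them negative, with a median of -0.66 against -0.28 over all genes. In WT cells it differed for 3 (23.6% called, 10.7% positive, 12.8% negative): Gmps (0.84 ± 0.28), Cmpk1 (0.94 ± 0.31) and Dut (-1.02 ± 0.33). Summed in pairs, these 4 counts were 0, 0, 6 and 0. Of 22 other settings, the WT call was lost in 7 for Gmps, 5 for Cmpk1 and 3 for Dut. In T2KO cells the calls of Gart and Ctps2 were lost in 17 and 11. The Cmpk1 value uses the WT normal libraries without LPS, in which libraries 2 and 4 stood above 1 and 3.

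Of 56 further genes of the same pathways, 52 could be tested. Deoxynucleotide synthesis (10 genes) fell with the medium, with 8 of 10 lower in T2KO cells with LPS and 7 of 10 in each of the other 3 comparisons, and 0 to 3 higher. Rrm2, the small subunit of ribonucleotide reductase, stood at 0.912, 2.54, 2.11 and 2.93 CPM in T2KO low against 69.1, 97, 74.9 and 99.2 CPM in T2KO normal libraries without LPS (-5.22 ± 0.33, adjusted p = 1.60e-15). In WT cells without LPS it was -2.82 ± 0.29 (adjusted p = 5.11e-10), and the difference of T2KO low from WT low cells was -2.66 ± 0.32 (adjusted p = 6.86e-08). Tk1, which phosphorylates thymidine, gave -4.54 ± 0.37 (adjusted p = 1.19e-12) in T2KO and -3.56 ± 0.34 (adjusted p = 2.02e-10) in WT cells with LPS. Tyms, thymidylate synthase, gave -4.16 ± 0.28 (adjusted p = 1.11e-14) in T2KO cells without LPS.

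Nucleotide breakdown (15 tested genes) was raised by LPS, with 8 of 15 higher in T2KO low, 8 in T2KO normal, 9 in WT low and 8 in WT normal cells, and 1 lower in WT low cells. Upp1, uridine phosphorylase, stood at 36.9, 30.2, 25.2 and 24.1 CPM with LPS against 0.414, 0.607, 0.663 and 1.4 CPM without in T2KO normal libraries (5.28 ± 0.41, adjusted p = 5.47e-13). In WT low libraries it stood at 23.2, 16.1, 27.5 and 25.2 CPM with LPS and had no count without LPS. Nt5c3, a pyrimidine nucleotidase, rose by 3.08 ± 0.20 in WT normal cells (adjusted p = 1.82e-15). Pnp2, a near-identical copy of the purine nucleoside phosphorylase Pnp whose reads may be shared with it, rose by 5.33 ± 0.35 in T2KO normal cells. Among kinases outside the set, Cmpk2, a mitochondrial UMP and CMP kinase induced by interferon, rose by 7.67 ± 0.33 in T2KO low, 6.33 ± 0.32 in T2KO normal, 6.4 ± 0.32 in WT low and 4.82 ± 0.29 in WT normal cells. With LPS Cmpk2 was higher in T2KO than WT cells by 1.5 ± 0.25 (adjusted p = 5.88e-05) in low and 1.04 ± 0.25 (adjusted p = 0.0107) in normal medium, and in T2KO low libraries it stood at 11282, 3736, 10141 and 3628 CPM, libraries 1 and 3 above 2 and 4.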

How the data were processed

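Gene-level read counts of 32 libraries, raw and not normalised, were deposited by the authors. The submitters' processing notes name the tools STAR, HTSeq and DESeq2, with mm10 as the build, but give no versions. The annotation and strand setting are not given in the sources used here. Entrez identifiers were matched to RefSeq symbols of GRCm38.p6, which named 96.3% of 24885 identifiers with 99.5% of the counts. Every column was assigned by its title.

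The counts were fitted with edgeR 4.0.16 (R 4.3.3) as 1 model with a mean per group: TMM scaling, filterByExpr at its defaults, the quasi-likelihood F test of glmQLFTest after glmQLFit (two-sided), and Benjamini-Hochberg adjustment over 11244 genes with a threshold of 0.05. CPM values are the deposited counts scaled by TMM library sizes, listed for libraries 1 to 4 in order, and were not compared between genes. The TMM factors followed treatment. They were 0.598 to 0.671 in T2KO low and 0.664 to 0.752 in WT low libraries with LPS. In normal libraries with LPS they were 0.903 to 1.01, and in libraries without LPS 1.15 to 1.37. Comparisons of LPS with no LPS, and of low with normal medium with LPS, therefore rest on this scaling. Standard errors were derived from the log2 fold change and its F statistic. Library totals were 3068863 to 15585423 counts (median 5596111), so that 3 counts, the most that an observed 0 allows at 95% confidence, equal 0.193 to 0.978 CPM. This covers counting error only, since no molecular identifiers are mentioned. The alternatives were RLE size factors, no filter, DESeq2 1.42.0, the compared groups alone, the replicate number as a block, libraries summed in pairs, and each library left out. The method was also run on simulated counts drawn independently for each library, with the spread fitted here. That simulation cannot show how the tests behave if libraries share a source.

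The members and all lists were chosen with earlier results of these data known. All members are named by role, with every library's values for the called member of largest change in each role group and comparison and for members going against their group, and the rest by counts and ranges. Further pathway genes are named only from a list, at most 4 per comparison, those called with the largest change. The neutrophil marker Ly6g was not analysed here.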

Additional observations from a re-analysis of the deposited data

Results flagged for a closer look

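In 12 of 272 sets of 4 libraries 1 member's highest or lowest value stood apart from the other 3 by more than Dixon's 95% limit for 4 values, where chance alone flags about 1 in 20. In WT normal cells without LPS, library 1 was above the other 3 for Taldo1 (660.0 against 306 to 336 CPM), Impdh2 (86 against 59.1 to 60.8 CPM) and Aprt (261 against 183 to 192 CPM). For Pgls, T2KO low LPS library 4 was below the other 3 (27.2 against 33.8 to 34.6 CPM). For Ppat, WT normal LPS library 1 was below the other 3 (9.79 against 11.9 to 12.1 CPM). For Gart, WT normal LPS library 1 was above the other 3 (20.4 against 16 to 16.6 CPM). For Paics, T2KO normal LPS library 2 was below the other 3 (76.1 against 112 to 114 CPM). For Adsl, T2KO normal library 1 without LPS was below the other 3 (18.1 against 22.6 to 23.3 CPM). For Gmps, T2KO low LPS library 1 was above the other 3 (53.4 against 31.3 to 34.8 CPM). For Cmpk1, T2KO normal library 2 without LPS was below the other 3 (97.8 against 107 to 109 CPM). For Guk1, T2KO normal library 4 without LPS was above the other 3 (21.9 against 17.7 to 18.3 CPM). For Nme1, T2KO normal LPS library 3 was above the other 3 (173 against 163 to 164 CPM). 

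For 23 values a test of the difference itself was called (edgeR interaction, adjusted over all genes). The effect of low medium, T2KO minus WT, differed with LPS by -1.73 for Prps1, -1.02 for Impdh2, 2.44 for Adss, -1.98 for Dtymk and -1.55 for Nme1. In WT cells the effect of LPS, low minus normal medium, differed by 0.84 for Gmps, 0.94 for Cmpk1 and -1.02 for Dut. In T2KO cells it differed by -1.19 for G6pdx, -1.02 for Pgls, 0.94 for Rpe, -1.17 for Prps2, -0.86 for Gart, 1.30 for Adss, -0.72 for Hprt, -2.37 for Cad, -1.15 for Umps, -0.73 for Ctps2, -1.43 for Guk1, -1.51 for Dtymk, -0.93 for Nme1, -0.69 for Nme2 and -1.82 for Dctpp1. The adjusted p-values ran from 5.62e-04 to 0.0417 in the first comparison, 0.0233 to 0.0260 in the second and 2.79e-04 to 0.0433 in the third. Summed in pairs, 0, 0 and 6 members were called. These calls were not equally firm over 22 other settings. In T2KO cells the call was lost in 17 settings for Gart, 11 for Ctps2 and 7 for Nme2. It was lost in 0 for G6pdx, Prps2, Cad, Guk1, Dtymk and Dctpp1. The WT call of Gmps was lost in 7. Between genotypes those of Prps1 and Impdh2 were lost in 14 and 10.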

How the results depend on the processing

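No member call reversed direction in any setting. The members had 184 calls over all comparisons, and of their 2758 values under the alternatives, 2416 kept the call and 342 lost it. Summing libraries in pairs, which leaves 2 samples per group, gave 15 members for LPS in T2KO low cells, 2 in T2KO normal and 1 in WT normal cells. For T2KO against WT it gave 4 in low medium with LPS, 1 in low medium without LPS, and 0 in normal medium with and without LPS. It gave 0 for the genotype by medium interaction with LPS, 6 for the medium by LPS interaction in T2KO cells and 0 in WT cells. Fitting the compared groups alone gave 8 for LPS in T2KO normal, 14 in T2KO low, 5 for T2KO against WT in low medium with LPS and 3 for the genotype by medium interaction with LPS. RLE size factors gave 7 for T2KO against WT in low medium with LPS, and 1 for the genotype by medium interaction without LPS, as did DESeq2. The median for low medium in T2KO cells with LPS was -1.19 with RLE size factors and -1.18 with DESeq2. Beyond the fewer samples, the cause was not tested. Here and above, member counts in pair sums, with the compared groups alone, with RLE size factors or with DESeq2 stand without shares over all genes. The same holds for the counts with the number as a block below. They are therefore not a result about the members.

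Leaving out 1 library at a time gave a median of -1.38 to -1.24 for that comparison, and -0.0794 to 0.0852 for LPS in WT normal cells. For T2KO against WT it gave 6 to 11 members in low medium with LPS, 3 to 6 in low medium without LPS (median -0.11 to 0.0534), and 0 to 2 in normal medium without LPS. Over all genes tested, 1547 to 2190, 1260 to 1781 and 144 to 188 genes were called in the same fits. The median in normal medium with LPS was -0.10 to 0.0095. The genotype by medium interaction had 3 to 6 members with LPS and 0 to 1 without, and the medium by LPS interaction in WT cells 1 to 4. All genes called in these fits numbered 322 to 801, 398 to 509 and 2315 to 2592. For T2KO against WT in low medium with LPS the count of members was 7 without T2KO low library 3 and 6 without WT low library 4, and in low medium without LPS it was 3 without WT low library 2. In normal medium without LPS it was 0 without T2KO normal library 1, 2 or 3 or WT normal library 2 or 4, and 2 without WT normal library 1. For the genotype by medium interaction with LPS it was 3 without T2KO low library 3, T2KO normal library 1 or 3, WT low library 4 or WT normal library 2 or 4. Without LPS it was 1 without T2KO low library 3 or 4, T2KO normal library 1, WT low library 4 or WT normal library 1. The WT medium by LPS count was 1 without WT normal library 2 or 4 without LPS.

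Whether the replicate number pairs the libraries is not stated. The correlations of same-numbered libraries all exceeded 0.1 in 1 of 28 pairs of groups and at least 3 of 4 did in 4 of 28, and every library correlated best with its own number in 1 of 28. The number was therefore not treated as a pairing, although the 8 and 7 genes that divide libraries 3 and 4 from 1 and 2 in all 8 groups, Rpia among them, follow it. With the number as a block, 28 members were called for medium in T2KO cells with LPS, 25 and 10 for LPS in T2KO low and WT low cells, 12 for T2KO against WT in low medium with LPS, and 14 and 4 for the medium by LPS interaction in T2KO and WT cells; the other counts were as without it. Under the block Rpia was called lower in low medium in T2KO cells with LPS (-0.88) and without LPS (-0.62) and in WT cells with LPS (-0.93).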
